A study of Mus musculus with 30 samples.

Results

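The genes described are 8 regulators of G protein signalling, Rgs2, Rgs3, Rgs4, Rgs10, Rgs12, Rgs16, Rgs17 and Rgs19, out of 56941 genes in the count tables. They were taken by gene symbol. The family was selected on 1 measured value, the higher level of Rgs4 after 24 h of cannabidiol (CBD), and the question was whether other members rose with it. All 8 were found, and all 8 passed the filter on low counts at both times. The data were 3′ mRNA-Seq libraries of mHypoA-2/12, an immortalized neuronal line from the hypothalamus of adult mice. CBD is a non-psychotomimetic compound of hemp. Cells received vehicle (0.1% DMSO) or CBD in the same vehicle at a dose of 0.325, 0.75, 1.5 or 3 µM for 6 h or 24 h, which makes 10 groups of 3 libraries each. The methods give n = 3 per concentration and do not say whether these were separate cultures, so that the p-values measure the spread between these libraries, which may be technical. All libraries come from 1 cell line and carry no batch label.

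RGS proteins bind the active, GTP-bound alpha subunit of heterotrimeric G proteins and speed up its hydrolysis of GTP, which ends the signal of a G protein-coupled receptor sooner. Many of their genes are themselves switched on by the signals they limit, and in the brain they set how strongly neurons answer to monoamines, opioids, cannabinoids and other ligands. By sequence, Rgs2, Rgs3, Rgs4 and Rgs16 belong to the R4 subfamily of mostly small proteins, Rgs10 and Rgs12 to the R12 subfamily, and Rgs17 and Rgs19 to the RZ subfamily, whose members act on the Gαi class and on Gαz.

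The promoters of 3 members of the R4 subfamily are printed: Rgs4, the gene for which the family was chosen, and Rgs16 and Rgs2, whose changes at 24 h and at 6 h are described in detail and did not pass the main test. Each line holds the 250 bases upstream of the annotated start in RefSeq on GRCm38.p6, read along the strand of the gene. Capitals mark 3 motifs that were searched as plain letters: TGACG or CGTCA, the core of the cyclic AMP response element on either strand, CCAAT or ATTGG, the CCAAT box on either strand, and TATAAA on the strand of the gene. Rgs4 lies on the minus strand (chr1:169747643-169747892), Rgs2 on the minus strand (chr1:144004150-144004399) and Rgs16 on the plus strand (chr1:153740103-153740352).
Rgs4: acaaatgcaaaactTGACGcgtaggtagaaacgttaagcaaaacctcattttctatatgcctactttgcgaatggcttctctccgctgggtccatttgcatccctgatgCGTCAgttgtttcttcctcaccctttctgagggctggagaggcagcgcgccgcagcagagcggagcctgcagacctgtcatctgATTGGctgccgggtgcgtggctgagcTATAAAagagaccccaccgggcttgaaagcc
Rgs2: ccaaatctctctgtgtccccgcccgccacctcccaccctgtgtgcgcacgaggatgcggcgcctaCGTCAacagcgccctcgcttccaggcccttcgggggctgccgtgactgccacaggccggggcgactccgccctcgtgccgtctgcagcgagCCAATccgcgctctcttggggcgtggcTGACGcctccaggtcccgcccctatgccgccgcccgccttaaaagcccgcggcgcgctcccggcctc
Rgs16: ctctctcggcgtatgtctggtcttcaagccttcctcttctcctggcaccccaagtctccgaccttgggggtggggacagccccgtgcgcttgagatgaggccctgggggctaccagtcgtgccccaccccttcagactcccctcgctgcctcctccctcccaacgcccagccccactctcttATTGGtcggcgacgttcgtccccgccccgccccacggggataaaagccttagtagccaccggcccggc
In the Rgs4 window, the cyclic AMP motif began at positions -236 and -141 from the start, the CCAAT box at -57 and TATAAA at -31. In that of Rgs2, the cyclic AMP motif began at -185 and -67 and the CCAAT box at -94. The Rgs16 window held the CCAAT box at -68 and no match to the other motifs. Of 32851 mouse promoter windows of this length, 17.8% held the cyclic AMP motif, 33.8% the CCAAT box and 7.59% TATAAA. A further search, for the AP-1 site TGANTCA, which reads the same on both strands and is in 6.75% of all windows, matched Rgs17 (-122) and 1 of the 2 windows of Rgs12 (-22). That window of Rgs12 also held the cyclic AMP motif at -82, both windows of Rgs3 held TATAAA, and those of Rgs10 and Rgs19 held none of these motifs. No matches overlapped in the windows printed. These matches describe letters in the windows and no binding was measured.

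The libraries held 1839621 to 4420675 reads on genes. The fewest were in A1 and A2, both vehicle of 6 h, with 1839621 and 1919498. The kit yields 1 fragment per transcript at its 3′ end, so CPM values (reads on the gene scaled to a common library total, with TMM factors over the 30 libraries) are not divided by length, and levels are compared below within a gene. Over the 30 libraries, 5114 reads fell on Rgs4, 4341 on Rgs2, 2295 on Rgs10, 2024 on Rgs19, 1518 on Rgs12, 781 on Rgs16, 487 on Rgs17 and 238 on Rgs3. In principal components of all genes at 6 h, a vehicle library (A3) and a library of 0.325 µM (A14) stood apart on the first component. They were at 41.8 and -37.7, and the other 6 h libraries lay from -22.3 to 16.4. At 24 h a library of 3 µM (A16) was at 55.6, where the others lay from -22.5 to 24.8. A3 had 17.9% of its reads outside genes, against 21.4% and 20.8% in the other vehicle libraries of 6 h. Of 11 neuronal markers, 5 reached a mean of 1 CPM: Tubb3 (49.3), Map2 (23.3), Nefl (16.5), Stmn2 (15.4) and Syt1 (2.01). The other 6 were below it, among them Npy with 1 read and Slc32a1 with none. By the same measure 9 of 9 mesenchymal markers reached 1 CPM, from Pdgfra at 30.2 to Vim at 2209 CPM. The marker genes thus go in part with and in part against the neuronal label.

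Rgs4, a brain-enriched member that acts on Gαi and Gαq and is known as an unstable protein, was higher with CBD at 24 h at every dose. This is the result for which the genes were chosen, and its values are given as a description without a test. At 24 h it was at 53.8, 47.7 and 55.9 CPM in vehicle, at 93.1, 74.2 and 62.0 CPM at 0.325 µM and at 102, 96.9 and 92.6 CPM at 0.75 µM. It was at 88.8, 75.7 and 79.2 CPM at 1.5 µM and at 74.8, 75.1 and 82.0 CPM at 3 µM. All 12 CBD libraries lay above all 3 vehicle libraries, which held for 0.33% of the genes tested at 24 h. The mean was 83.0 ± 11.6 CPM (SD, n = 12) with CBD and 52.5 ± 4.23 CPM (SD, n = 3) in vehicle. The log2 fold change of the 4 doses together was 0.65 (standard error 0.12), and by dose it was 0.54, 0.87, 0.62 and 0.56 from the lowest to the highest. In bulk RNA, a larger share of expressing cells and more RNA per cell cannot be told apart. The summed neuronal markers were at 107 to 117 CPM in vehicle and 95.6 to 125 CPM with CBD at 24 h, the mesenchymal ones at 8822 to 9810 and 8422 to 9736 CPM, and the glial and microglial ones at 13.98 to 17.9 and 9.72 to 26.7 CPM, and their part in the result was not tested.

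**Figure D1:**
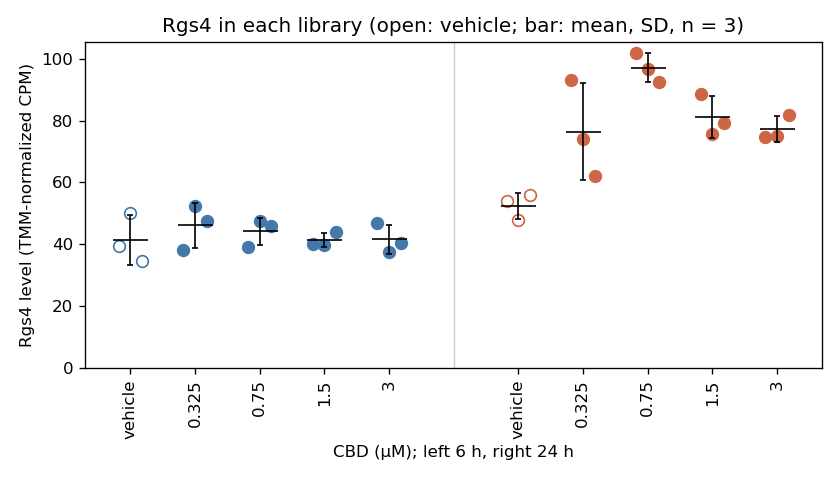
Rgs4 in CPM (y axis) in each of the 30 libraries by CBD dose in µM (x axis), with 6 h on the left and 24 h on the right. Open circles are vehicle and bars give the mean and SD of 3 libraries. At 24 h all 12 CBD libraries lie between 62.0 and 102 CPM, above the vehicle libraries at 47.7 to 55.9 CPM, whereas at 6 h the groups overlap.

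The order of the 24 h means of Rgs4 was 97.1 ± 4.68 CPM for the 0.75 µM group, then 81.2 ± 6.76 CPM for 1.5 µM, 77.3 ± 4.06 CPM for 3 µM and 76.4 ± 15.7 CPM for 0.325 µM (SD, n = 3 each). The libraries of the 3 latter doses overlapped, and those of 0.325 µM also overlapped those of 0.75 µM. Among the doses Rgs4 changed by -0.01 on the log2 scale per doubling of dose (95% interval -0.10 to 0.08, edgeR quasi-likelihood test with Benjamini-Hochberg adjustment, FDR = 0.934), a slope that did not pass.

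At 6 h no such difference was present. Rgs4 was at 39.5, 50.2 and 34.4 CPM in vehicle, and the 12 CBD libraries ran from 37.5 to 52.5 CPM with a median of 42.1 CPM. Only 1 of these 12 lay above the highest vehicle library. The log2 fold change of the 4 doses together was 0.08 (standard error 0.15, 95% interval -0.24 to 0.39, edgeR quasi-likelihood FDR = 0.918), and it was -0.05 without library A3. The change at 24 h exceeded that at 6 h by 0.57 on the log2 scale (standard error 0.18). This is given as a description, since the family was chosen on the 24 h value. In vehicle alone Rgs4 was 0.36 higher at 24 h than at 6 h on the log2 scale (standard error 0.17), and with CBD 0.93 higher (standard error 0.08).

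None of the other 7 members rose with Rgs4 at 24 h by the test used. Over the 4 doses together, 0 of 7 passed an FDR of 0.1 in edgeR's quasi-likelihood test with Benjamini-Hochberg adjustment, against 0.107% of all 12118 genes tested. At an unadjusted p below 0.05 the count was also 0 of 7 (6.73% of all genes), and DESeq2 called 0, giving no adjusted p for Rgs3, Rgs16 and Rgs17. For Rgs2, Rgs10, Rgs12 and Rgs19 the 95% intervals of the log2 fold change ended at 0.41, 0.52, 0.13 and 0.27. For Rgs3, Rgs16 and Rgs17 they reached 0.83, 1.33 and 1.13, so that a change as large as that of Rgs4 was within the range these read counts allow. No member was tested against the 0.65 of Rgs4 (standard error 0.12), since the family was chosen on that value. Of the 7 log2 fold changes, 4 were above 0 (48.6% of all genes), with a median of 0.08 against -0.01 over all genes. Taken dose by dose, 0 of 28 pairs of a member and a dose passed (0.066%, 0.0825%, 0.0413% and 0.00825% of all genes from the lowest to the highest dose), 4 pairs had an unadjusted p below 0.05 (8.33%, 7.63%, 7.34% and 9.16% of all genes), and DESeq2 called 0, with no adjusted p for 7 pairs.

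**Figure D2:**
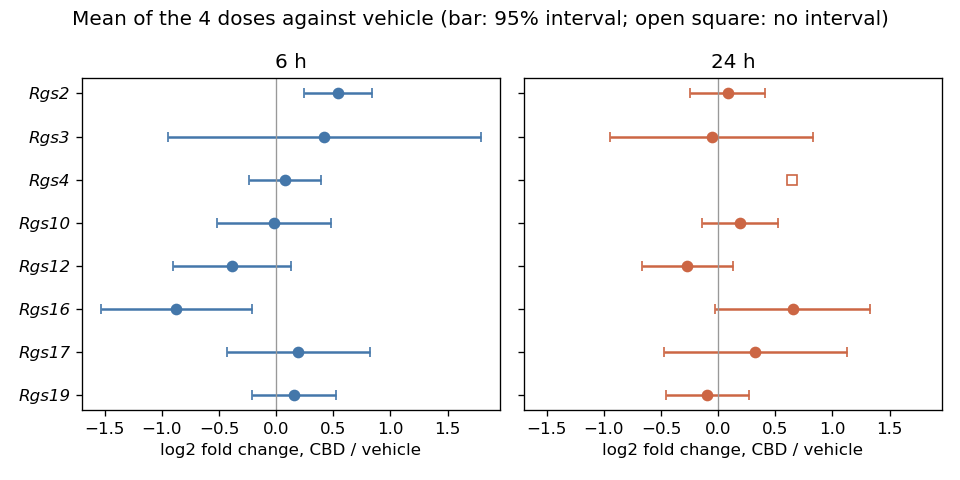
Log2 fold change of the mean of the 4 CBD doses against vehicle (x axis) for each of the 8 genes (y axis), at 6 h on the left and at 24 h on the right, with points for the estimate and bars for the 95% interval. The open square is Rgs4 at 24 h, which was chosen for its value of 0.65 and has no interval drawn. At 6 h the interval of Rgs2 (0.24 to 0.84) lies above 0 and that of Rgs16 (-1.53 to -0.21) below it, and at 24 h the 7 intervals drawn all include 0.

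At 6 h, too, 0 of 8 members passed over the 4 doses together in edgeR, against 0.749% of the 12012 genes tested. Of the 8, 2 had an unadjusted p below 0.05 (10.3% of all genes), Rgs2 with a positive and Rgs16 with a negative log2 fold change, and DESeq2 called 1, Rgs2. By dose, 0 of 32 pairs passed in edgeR (0.2%, 0.0749%, 0.0999% and 0.05% of all genes from the lowest to the highest dose), 6 had an unadjusted p below 0.05 (8.8%, 7.79%, 7.91% and 7.26% of all genes), and DESeq2 called 1, Rgs2 at 0.75 µM, with no adjusted p for 9 pairs.

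Rgs2, which acts mainly on Gαq and is a known early-response gene, had its larger change with CBD at 6 h. It was at 41.7, 31.5 and 40.8 CPM in vehicle, at 44.1, 57.2 and 56.4 CPM at 0.325 µM and at 65.0, 62.0 and 61.9 CPM at 0.75 µM. At 1.5 µM it was at 56.4, 43.5 and 51.5 CPM, and at 3 µM at 63.1, 53.2 and 56.3 CPM. All 12 CBD libraries lay above the highest vehicle library, as they did for 0.716% of all genes tested at 6 h, and the gap between the groups was narrow, from 41.7 to 43.5 CPM. The mean was 55.9 ± 6.93 CPM (SD, n = 12) with CBD and 38.0 ± 5.66 CPM (SD, n = 3) in vehicle, a log2 fold change of 0.54 (standard error 0.15, 95% interval 0.24 to 0.84) with an FDR of 0.115 in edgeR's quasi-likelihood test, just above the threshold. The FDR was 0.0687 with DESeq2 and 0.0412 with the reads outside genes, as a share, in the model. It was 0.0905 without library A3, 0.0960 without A8 (1.5 µM) and 0.0739 without A13 (0.325 µM). Without the vehicle library A2, where Rgs2 was lowest among the 6 h libraries, it was 0.401. The call thus depended on single libraries, while the log2 fold change stayed between 0.43 and 0.61. By dose the log2 fold changes were 0.45, 0.72, 0.40 and 0.59, and they had no slope over dose (0.01 per doubling, 95% interval -0.09 to 0.12).

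At 24 h Rgs2 was at 53.1, 52.7 and 35.0 CPM in vehicle, and the CBD libraries ran from 23.4 to 59.2 CPM with a median of 52.2 CPM. The groups overlapped, and the log2 fold change was 0.08 (95% interval -0.24 to 0.41, edgeR FDR = 0.972). The lowest value, 23.4 CPM, was that of A16 at 3 µM, where the other 2 libraries were at 52.9 and 46.9 CPM, and without A16 the log2 fold change at 3 µM was 0.08 in place of -0.20. The change at 24 h was 0.45 smaller than at 6 h on the log2 scale (standard error 0.22, FDR = 0.761 in edgeR's quasi-likelihood test), a difference that did not pass. In vehicle alone Rgs2 was 0.30 higher at 24 h than at 6 h on the log2 scale (standard error 0.20). With CBD it was 0.15 lower (standard error 0.10), and neither passed.

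Rgs16, an R4 member that acts on Gαi and Gαq and whose protein, like that of Rgs4, is broken down through the N-degron pathway, had the estimate nearest to that of Rgs4 at 24 h with a wider error. It was at 5.59, 2.65 and 6.40 CPM in vehicle, at 8.16, 13.3 and 8.18 CPM at 0.325 µM and at 10.2, 8.77 and 4.89 CPM at 0.75 µM. At 1.5 µM it was at 8.39, 13.7 and 8.21 CPM, and at 3 µM at 2.83, 4.20 and 7.01 CPM. Of the 12 CBD libraries, 9 lay above the highest vehicle library, and the 3 µM group overlapped vehicle. The log2 fold change over the 4 doses was 0.65 (standard error 0.33, 95% interval -0.03 to 1.33, edgeR FDR = 0.774), with 0.99, 0.67, 1.01 and -0.07 from the lowest to the highest dose. Per doubling of dose it fell by 0.27 on the log2 scale (FDR = 0.272 in edgeR's quasi-likelihood test), a slope that did not pass.

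At 6 h the value of Rgs16 rested on 1 library. It was at 7.78, 9.60 and 30.8 CPM in vehicle, the last being A3, and the CBD libraries ran from 4.73 to 14.3 CPM with a median of 9.39 CPM. Its log2 fold change was -0.87 (standard error 0.32, edgeR FDR = 0.299) with A3 and 0.09 without it. The antisense gene Gm28513 overlaps the 3′ end of Rgs16, where this kit reads. Whether the counting used strand is not given in the sources used here. How reads on the overlap were assigned, or whether they were left out as ambiguous, is therefore not known.

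Rgs3, the R4 member with long isoforms, had 1 to 17 reads per library, and its intervals were too wide to read a direction. It was at 4.45, 1.07 and 0.278 CPM in vehicle at 6 h and at 1.16, 4.31 and 5.72 CPM in vehicle at 24 h, which spans nearly the whole range of the CBD libraries (0.873 to 4.81 CPM at 6 h and 1.23 to 6.02 CPM at 24 h). The log2 fold change of CBD was 0.42 at 6 h (95% interval -0.95 to 1.79) and -0.06 at 24 h (95% interval -0.95 to 0.83).

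**Figure D3:**
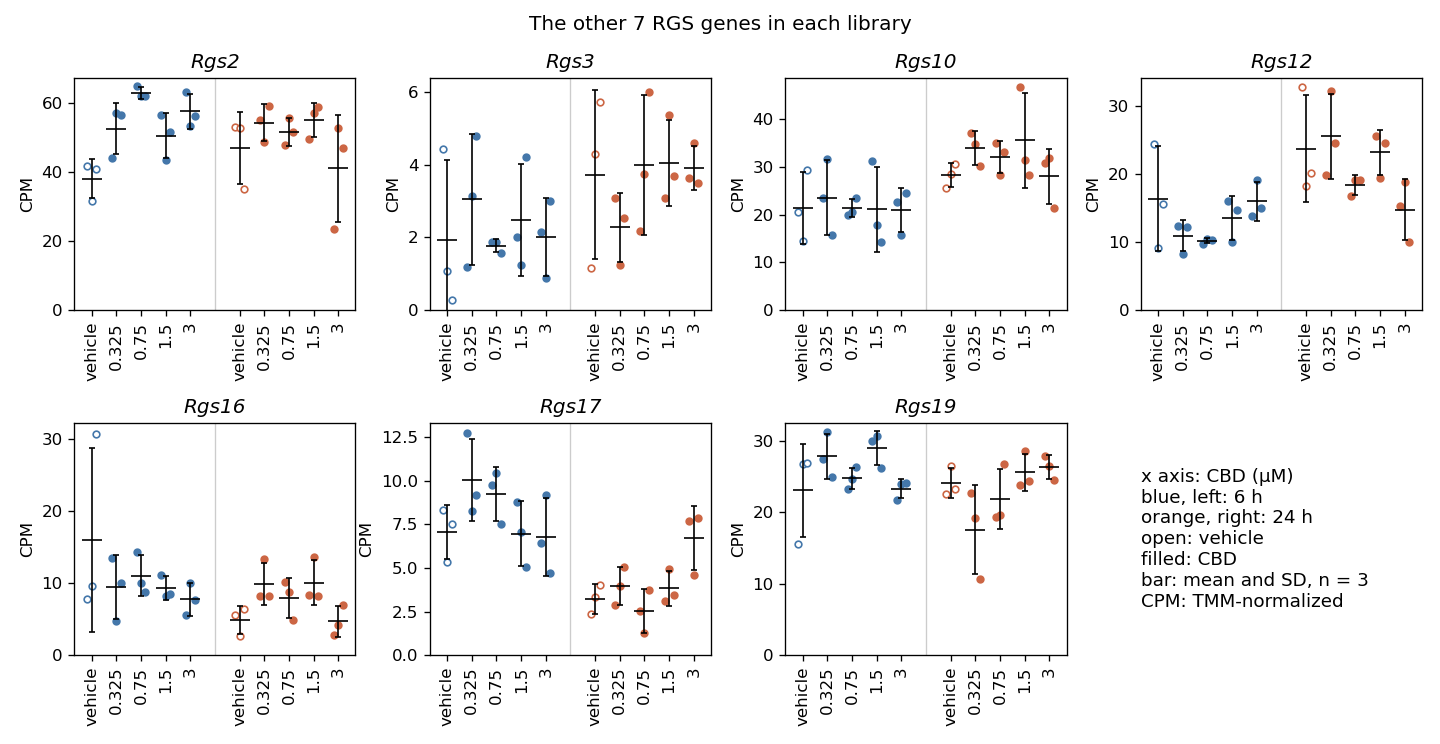
CPM (y axis) of the other 7 genes in each of the 30 libraries by CBD dose in µM (x axis), with 6 h in blue on the left and 24 h in orange on the right, vehicle as open circles, and the mean and SD of 3 libraries as bars. The Rgs2 libraries of CBD at 6 h (43.5 to 65.0 CPM) lie above those of vehicle, Rgs16 has 1 vehicle library of 6 h at 30.8 CPM, and most Rgs10 and Rgs12 values are higher on the right, those of Rgs17 lower.

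Rgs10, a small protein of the R12 subfamily that acts on Gαi and is best known from microglia, overlapped between vehicle and CBD at both times. At 6 h it was at 20.6, 14.4 and 29.4 CPM in vehicle and at 14.4 to 31.6 CPM with CBD (median 21.6 CPM). At 24 h it was at 25.6, 28.5 and 30.6 CPM in vehicle and at 21.5 to 46.8 CPM with CBD (median 31.7 CPM), with 8 of 12 above the highest vehicle library. The log2 fold change was -0.02 at 6 h (95% interval -0.52 to 0.48) and 0.19 at 24 h (95% interval -0.14 to 0.52, edgeR FDR = 0.913), and at 6 h its sign changed when any of 5 single libraries was left out.

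Rgs12, a large member with PDZ, Ras-binding and GoLoco domains beside the RGS domain, had negative log2 fold changes at both times, and neither passed. It was at 24.5, 9.07 and 15.5 CPM in vehicle at 6 h, against 8.28 to 19.2 CPM with CBD, and at 32.8, 18.2 and 20.2 CPM in vehicle at 24 h, against 10.1 to 32.3 CPM with CBD. The log2 fold changes were -0.39 (95% interval -0.90 to 0.13) and -0.27 (95% interval -0.66 to 0.13). At 3 µM and 24 h it was at 15.4, 18.9 and 10.1 CPM, with 2 of the 3 libraries below all vehicle libraries, a log2 fold change of -0.69 (standard error 0.26, edgeR FDR = 0.511). Over the 24 h doses it fell by 0.18 on the log2 scale per doubling (FDR = 0.228 in edgeR's quasi-likelihood test), and this slope passed only when A17 (3 µM) was left out, with an FDR of 0.082.

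Rgs17, an RZ member that acts on Gαz and the Gαi class, had its highest mean among the 24 h groups at 3 µM. It was at 2.33, 3.32 and 4.04 CPM in vehicle, at 7.68, 4.62 and 7.89 CPM at 3 µM, and at 1.25 to 5.07 CPM at the 3 lower doses. The log2 fold change at 3 µM was 1.08 (standard error 0.47, 95% interval 0.11 to 2.05, edgeR FDR = 0.511), which did not pass. It rests on 10 to 12 reads per library in vehicle and 11 to 19 at 3 µM. Over the 4 doses together the log2 fold change was 0.32 (95% interval -0.48 to 1.13). At 6 h Rgs17 was at 8.34, 5.34 and 7.50 CPM in vehicle and 4.73 to 12.7 CPM with CBD, a log2 fold change of 0.19 (95% interval -0.43 to 0.82).

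Rgs19, the RZ member that binds Gαi and Gαz and the adaptor GIPC, was at 15.6, 26.7 and 26.9 CPM in vehicle at 6 h, against 21.7 to 31.2 CPM with CBD (log2 fold change 0.16, 95% interval -0.21 to 0.53). At 24 h it was at 22.6, 26.5 and 23.2 CPM in vehicle, against 10.7 to 28.6 CPM with CBD (log2 fold change -0.10, 95% interval -0.46 to 0.27). Both times overlapped. Its values over the 24 h doses were lowest at 0.325 µM, at 22.7, 19.2 and 10.7 CPM, and the slope of 0.19 on the log2 scale per doubling had an FDR of 0.16 in edgeR's quasi-likelihood test.

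**Figure D4:**
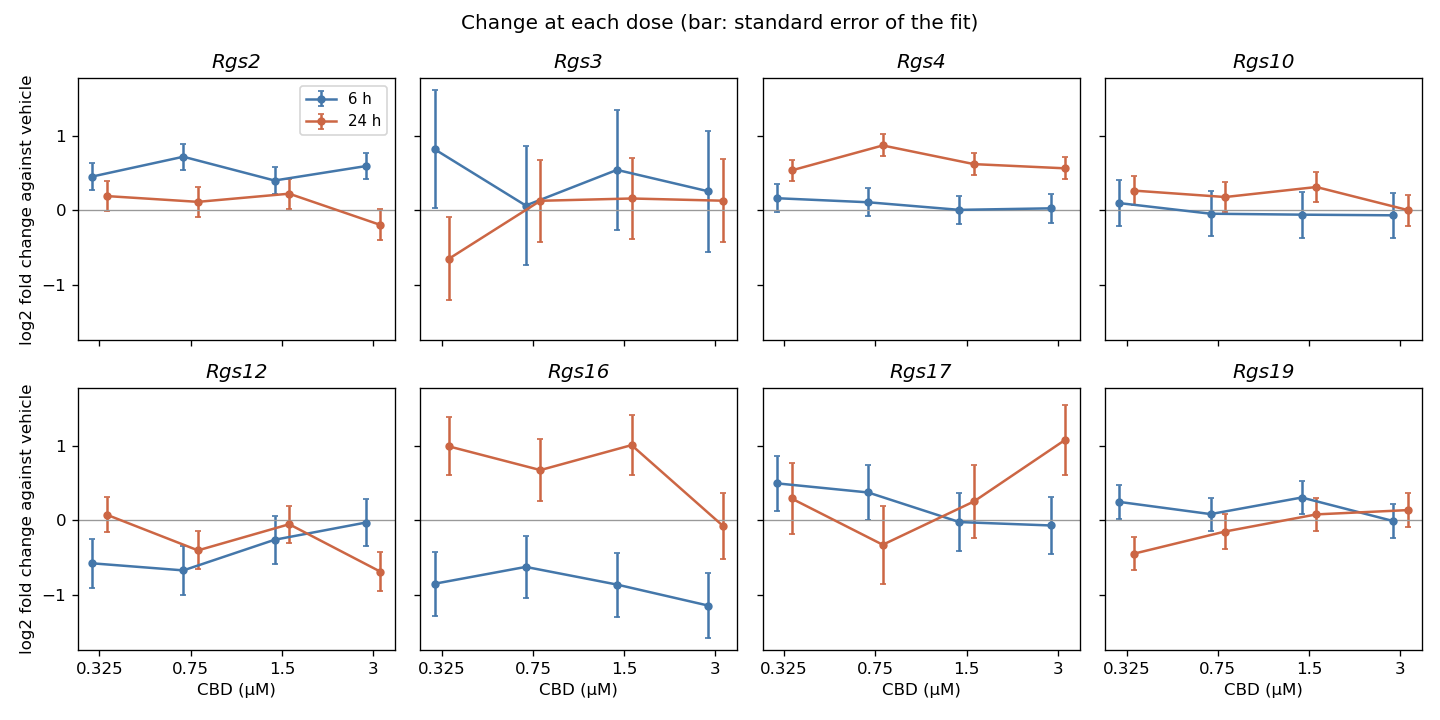
Log2 fold change against vehicle (y axis) at each CBD dose in µM (x axis), 1 panel per gene, 6 h in blue and 24 h in orange, with points for the estimate and bars for its standard error. Rgs4 has its 24 h points (0.54 to 0.87) above its 6 h points (0.01 to 0.16), Rgs2 shows the reverse order of times (0.40 to 0.72 at 6 h), and Rgs16 drops from 1.01 at 1.5 µM to -0.07 at 3 µM at 24 h.

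Differences among the 4 doses, without vehicle, did not pass for any member. At 6 h, 0 of 8 passed for any difference (0% of all genes) and 0 of 8 for a slope over dose (0% of all genes), and 0 of 8 had an unadjusted p below 0.05 in either test in edgeR (3.76% and 4.27% of all genes), with 0 calls by DESeq2. At 24 h, 0 of 8 passed for any difference (1.93% of all genes) and 0 of 8 for a slope (3.13% of all genes). Unadjusted p below 0.05 was reached by Rgs12 for any difference (14.5% of all genes) and by Rgs12, Rgs16 and Rgs19 for a slope (16.5% of all genes), and DESeq2 called 0 in both, with no adjusted p for 3 and 2 members.

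Between the times, members passed at a share near or below that of all genes. In vehicle, 2 of the 7 members other than Rgs4 passed between 24 h and 6 h in edgeR, against 26.7% of the 12790 genes tested, and DESeq2 called 2. Both were lower at 24 h (14.2% of all genes were called lower). Rgs16 fell by 1.78 on the log2 scale (standard error 0.43, edgeR quasi-likelihood FDR = 0.00331), and by 0.80 without A3, with an FDR of 0.265. Rgs17 fell by 1.15 (standard error 0.41, FDR = 0.0441), and its call was lost without any of A1, A3 or A28, with FDRs of 0.113, 0.132 and 0.191. With CBD, in a comparison added after the values were seen, Rgs10 rose by 0.57 on the log2 scale from 6 h to 24 h (standard error 0.13, edgeR FDR = 0.000519), Rgs12 rose by 0.69 (standard error 0.15, FDR = 0.000221) and Rgs17 fell by 1.01 (standard error 0.20, FDR = 8.3e-05). These 3 of 7 stand against 53.6% of all genes called in the same comparison. Time in culture and time of harvest cannot be told apart.

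The change with CBD differed between 24 h and 6 h for 0 of these 7 members in edgeR (0.235% of all genes), with 0 calls by DESeq2. An unadjusted p below 0.05 was reached by 2 of them (6.52% of all genes), Rgs2 as given above and Rgs16, whose change was 1.53 higher at 24 h on the log2 scale (standard error 0.49, FDR = 0.340 in edgeR's quasi-likelihood test) and 0.57 higher without A3.

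Of 13 other RGS genes, Rgs1, Rgs6, Rgs13, Rgs14 and Rgs18 had no read in any library, which allows at most 3 reads each among the 84273080 reads on genes (counting error only), and Rgs7, Rgs8, Rgs9, Rgs21 and Rgs22 had 44, 23, 6, 13 and 2 reads over the 30 libraries. Rgs5, an R4 gene near Rgs4 on chromosome 1, and Rgs20, an RZ gene, passed the filter at 24 h, and Rgs11 and Rgs20 at 6 h. At 24 h Rgs5 was at 2.69 ± 1.18 CPM in vehicle and at 4.26 ± 0.579, 3.94 ± 1.20, 4.71 ± 1.82 and 1.97 ± 0.308 CPM from the lowest to the highest dose (SD, n = 3 each). Rgs20 was at 2.97 ± 0.380 CPM in vehicle and at 4.19 ± 2.32, 4.94 ± 1.52, 5.34 ± 0.853 and 2.39 ± 1.29 CPM (SD, n = 3 each). For both, as for Rgs16, the estimates at the 3 lower doses were above 0 and that at 3 µM below it, and the log2 fold changes over the 4 doses, 0.43 (standard error 0.41) and 0.44 (standard error 0.41), did not pass (edgeR FDR = 0.920 and 0.919).

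Genes that work with the RGS proteins did not pass with CBD over the 4 doses either. At each time 0 genes passed in edgeR among the 12 tested of 14 genes of other families with an RGS domain, the 9 tested of 11 other regulators of G proteins, the 7 tested of 13 adenylyl cyclases and phospholipases C beta, and all 8 genes of the N-degron pathway that degrades Rgs4. The count was also 0 among 13 G protein alpha subunits and 16 beta and gamma subunits, of which 9 each were tested at 6 h and 10 each at 24 h. At 24 h, unadjusted p below 0.05 was reached by 1 alpha subunit, 1 beta or gamma subunit and 2 other regulators (6.73% of all genes), and at 6 h by 2 alpha subunits, 1 beta or gamma subunit and 1 cyclase or phospholipase (10.3% of all genes). Over the 24 h doses Gng12, a gamma subunit, fell by 0.13 on the log2 scale per doubling (edgeR FDR = 0.0904) and Metap2, a methionine aminopeptidase that exposes the second residue of new proteins, rose by 0.13 (edgeR FDR = 0.0910), both just inside the threshold, which 3.13% of all genes passed.

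Between the vehicle groups, 5 of the 10 alpha subunits tested passed, where 26.7% of all genes did. Of the other lists, 2 of 10 beta and gamma subunits, 2 of 12 genes of other families with an RGS domain, 1 of 8 cyclases and phospholipases, 2 of 8 genes of the N-degron pathway and 0 of 9 other regulators passed, with 0 of the other regulators at an unadjusted p below 0.05. Gnao1 (log2 fold change 1.37, edgeR FDR = 7.89e-05), Gnai1 (1.05, FDR = 0.000371), Gna11 (0.69, FDR = 0.0009) and Gnai2 (0.46, FDR = 0.00168), which encode targets of RGS proteins, were higher at 24 h, and Gnai3 was lower (-0.58, FDR = 0.0457). The beta subunits Gnb1 (-0.50, edgeR FDR = 0.00585) and Gnb2 (-0.66, FDR = 0.0815) were lower. Arhgef1 (-0.61, edgeR FDR = 0.0201) and Arhgef12 (0.36, FDR = 0.0451), RhoGEFs with an RGS-like domain, moved apart. Adcy5, an adenylyl cyclase (2.41, edgeR FDR = 0.0756), and the N-degron ligase gene Ubr4 (0.36, FDR = 0.0850) were higher and Metap1 (-0.52, FDR = 0.0331) was lower. Adcy5 had only 169 reads over the 30 libraries, with a read in 27 of them. Whether the calls of these partner genes hold without A3 was not tested.

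After subtraction of the mean of each time, Pearson's r of log2 CPM over the 30 libraries ran from -0.47 to 0.22 among the 28 pairs of members, with a median of 0.07, the lowest for Rgs3 and Rgs16 and the highest for Rgs12 and Rgs16. Without that subtraction, so that the difference between the times is included, r was 0.62 for Rgs4 and Rgs10, -0.68 for Rgs4 and Rgs17 and -0.60 for Rgs12 and Rgs17. Among 8685 genes with a mean of at least 10 CPM, those most like Rgs4 after the subtraction were Phf20 (r = 0.73), Nkd2 (0.69), Nek6 (0.69), Calhm5 (0.67) and Nudt4 (0.67). Rgs2, Rgs10, Rgs12 and Rgs19 were ranked and were not among these. Rgs3, Rgs16 and Rgs17, at means of 2.92, 9.11 and 6.04 CPM, were below the limit and could not appear. Without the subtraction those most like Rgs4 were Phf20 (0.93), Nkd2 (0.92), Foxn3 (0.92), Nek6 (0.91) and Elobl (0.91). These are descriptions, since the points share the groups of the design and include the 24 h rise of Rgs4 on which the family was chosen. Genes of low count also vary more by counting alone.

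On GRCm38, Rgs4 (ENSMUSG00000038530) lies at chr1:169741477-169747642, Rgs2 (ENSMUSG00000026360) at chr1:143999338-144004161 and Rgs16 (ENSMUSG00000026475) at chr1:153740349-153745468. Rgs3 (ENSMUSG00000059810) lies at chr4:62559847-62704001, Rgs10 (ENSMUSG00000030844) at chr7:128373621-128418758 and Rgs12 (ENSMUSG00000029101) at chr5:34949445-35039644. Rgs17 (ENSMUSG00000019775) lies at chr10:5825663-5922400 and Rgs19 (ENSMUSG00000002458) at chr2:181688419-181693977. All 8 are protein coding. Annotated genes also overlap Rgs3 (Gm11209, antisense), Rgs10 (Gm15503, same strand) and Rgs12 (Mir3097, same strand, and Gm43791, antisense).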

How the data were processed

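The deposited values are raw counts of reads per Ensembl gene, 1 table per library, with no normalization. According to the methods and the submitters' processing notes, the authors checked reads with FastQC 0.11.9, trimmed them with Flexbar, mapped them with STAR 2.7.5c to GRCm39 and counted them with HTSeq 1.99.2. Whether strand was used is not given in the sources used here. The summary lines of each table, with 17.7% to 22.2% of reads outside genes per library, were left out of library sizes. Members and gene lists were chosen with earlier results of these data known.

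Tests used edgeR 4.0.16 under R 4.3.3 (filterByExpr, TMM, quasi-likelihood F-test) and a group-means model of the 15 libraries of a time, or of all 30 across times. The Benjamini-Hochberg method was applied to every gene tested in a contrast, and an FDR under 0.1, as in the study, was called. DESeq2 1.42.0 was an alternative. The authors' own DESeq2 results were not used. Contrasts were the mean of the 4 doses and each dose against vehicle, any difference among doses, a slope over log2 dose, vehicle of 24 h against 6 h, and the difference in the change with CBD between times. CBD of 24 h against 6 h was added after the values were seen. Rgs4 was given no test where the 24 h comparison with vehicle enters, and was left out of those counts.

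Named are all members. From each other list, genes called in the comparison over the 4 doses, between vehicle groups or among doses are named, at most 5 per list and comparison, and other RGS genes that passed the filter. Genes like Rgs4 are the 5 with the highest Pearson r over the 30 libraries on log2 CPM (prior count 2), with and without the mean of each time subtracted, among genes of at least 10 CPM. The steps were tested on simulated data. Positions and symbols are those of GENCODE M21, which is on GRCm38 and not on the assembly of the counts, and promoters come from RefSeq on GRCm38.p6, where 8 of 8 members were found in 12 windows. Besides DESeq2, the alternatives were RLE factors, all genes with a read, a minimum of 10 counts per library, a covariate (the percentage of reads that fell outside genes), 1 fit of 30 libraries, only the 6 libraries of a pair of groups, each library left out, and Spearman's rho for likeness.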

Additional observations from a re-analysis of the deposited data

How the results depend on the processing

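No paired analysis was possible because the labels number the libraries in one run from A1 to A30 and tie none to a library of another group. At 24 h over the 4 doses, at each dose and for any difference among doses, 0 members other than Rgs4 passed under every alternative run, and Rgs4 kept a log2 fold change of 0.64 to 0.74 under the other settings and of 0.59 to 0.70 with each library left out. At 6 h over the 4 doses, the count of members passing rose from 0 to 1 (Rgs2) with DESeq2 and with the covariate (reads outside genes), and was 0 to 1 with each library left out. For each dose at 6 h it was 1 (Rgs2 at 0.75 µM) with DESeq2, with no filter and with the covariate, and 0 to 1 with each library left out. The slope over the 24 h doses gave 0 to 1 with each library left out. Between the vehicle groups the count of 2 became 1 with no filter and 1 with the covariate (Rgs16 in both) and 0 with at least 10 counts per library, a filter that removed Rgs16 and Rgs17, and ran from 0 to 3 with each library left out. No member passed for the difference in change between times under any alternative run. The genes most like Rgs4 by Spearman's rho were Phf20, Nkd2, March6, Nudt4 and Palld.

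Signs turned in values that were not called, all but 1 of them by leaving out 1 library. With each library left out, the log2 fold change over the 4 doses at 6 h ran from -0.26 to 1.90 for Rgs3, -0.052 to 0.24 for Rgs4, -0.22 to 0.32 for Rgs10, -1.18 to 0.090 for Rgs16 and -0.040 to 0.30 for Rgs19. The value farthest to the other side came without A3, and for Rgs19 without A1. At 24 h it ran from -0.080 to 0.19 for Rgs2, -0.53 to 0.40 for Rgs3 and -0.42 to 0.054 for Rgs12, turning without A30, A30 and A28. Between the vehicle groups it ran from -0.14 to 0.20 for Rgs19. The difference in change between times ran from -1.98 to 0.20 for Rgs3, -0.13 to 0.42 for Rgs10, -0.22 to 0.44 for Rgs12 and -0.074 to 0.32 for Rgs17, and that of Rgs3 was 0.022 with the covariate. Why single libraries moved these values was not tested.

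Over all genes, the count called over the 4 doses was 90 at 6 h (66 to 329 under the other settings, 51 to 304 with each library left out) and 13 at 24 h (0 to 46 and 1 to 47). For the slope at 24 h it was 379 (0 to 657 and 3 to 1394), for any difference among the 24 h doses 234 (1 to 783 and 9 to 1085), and for the difference in change between times 30 (25 to 87 and 2 to 45). Low read counts limit what can be read from Rgs3, Rgs16 and Rgs17. With at least 10 counts per library, Rgs3 had no value at either time, and Rgs16 and Rgs17 none at 24 h or across times.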
